A study of Homo sapiens with 6 samples.

Results

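The genes described here are 10: the alpha-like globin genes HBZ, HBM, HBA2, HBA1 and HBQ1, the zeta-globin pseudogene HBZP1, the flanking genes MPG, NPRL3 and LUC7L, and AHSP, which encodes the chaperone of free alpha-globin. They were taken by gene name from the deposited tables, and all 10 were found among the 62754 gene rows. By their deposited coordinates, 9 of the 10 lie together at the tip of chromosome 16, while AHSP lies 31.355 Mb from HBA2 on the same chromosome, so it is a gene of alpha-globin biology but not of the locus. After depletion of menin, the zeta-globin gene HBZ rose about 12.3-fold, HBA1, HBA2 and AHSP each rose about 1.9- to 2.0-fold, while of the flanking genes NPRL3 rose 1.20-fold, MPG fell and LUC7L did not pass the test.

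By its title the series concerns the MLL1 complex, a histone methyltransferase assembly that contains menin, in the repression of fetal hemoglobin. RNA selected for poly(A) was sequenced from HUDEP-2, an established line of immortalised human erythroid precursors whose hemoglobin is mostly of the adult type. One group of 3 libraries came from cells carrying a lentiviral shRNA against MEN1, which encodes menin (MEN1 shRNA, label MEN1sh2, genotype given as MEN1 knockdown), and the other 3 from cells carrying a control shRNA without a target (genotype given as WT). The StemSpan SFEM medium of both groups held 3 units of EPO and 50 ng of SCF per ml, 1e-06 M dexamethasone and 1 µg/ml doxycycline. Both groups received puromycin at 2 µg per ml from 24 h after infection for 48 h, and both were harvested at 72 h. The labels call the 3 libraries of a group biological replicates and do not say how the cultures were separated, so the p-values measure the spread between these libraries. A single MEN1 hairpin was used, so loss of menin and any other action of the hairpin cannot be told apart. The inferred depth was 18400000 to 35800000 read pairs per library, and 13865 to 14361 genes per library had a TPM (a transcript level scaled per gene length and to a fixed total per library) of 1 or more. MEN1 itself stood at 6.29, 6.44 and 6.88 TPM in the MEN1 shRNA libraries and at 41.2, 39.6 and 37.1 TPM in the controls (log2 fold change -2.42, adjusted p 7.75e-06 in limma).

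Hemoglobin is a tetramer of alpha-like and beta-like chains that come from separate gene clusters on different chromosomes. In the alpha cluster the genes lie in the order in which they are used in development: HBZ, whose zeta chain belongs to embryonic hemoglobins, lies nearest the upstream enhancers. HBA2 and HBA1, which make the same alpha chain of fetal and adult hemoglobins, lie further downstream. The enhancers themselves sit in introns of NPRL3, a gene with a separate role in nutrient signalling, and the chaperone AHSP binds free alpha chains until they meet a beta chain.

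Reads from HBZ and its pseudogene are hard to separate, and the sequences are shown here because the largest change in the locus rests on that pair. Over the 429 coding bases of HBZ the pseudogene transcript differed at 3 positions (99.3% identity, GENCODE v29, GRCh38). Counted from 1 at the A of the start codon, with the HBZ base first, these were G19T, which turns codon 7 (GAG) into the stop codon TAG, A22G in codon 8 and A380C in codon 127. The lines give bases 1 to 60 and then 361 to 400 of both, with the differing bases in capitals.
HBZ: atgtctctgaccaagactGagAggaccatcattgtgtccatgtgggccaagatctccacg
HBZP1: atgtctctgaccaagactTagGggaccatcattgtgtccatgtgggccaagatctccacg
HBZ: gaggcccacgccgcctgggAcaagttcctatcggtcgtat
HBZP1: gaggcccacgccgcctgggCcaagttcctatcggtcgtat
Of the 279 windows of 151 bases in the HBZ coding sequence, the length of 1 read, 207 (74.2%) also occur in HBZP1 without a difference. The untranslated bases of HBZ were not compared. A window stands for 1 read alone, and the other read of its pair was not considered.

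The second exon of HBZ (chr16:153892-154096, plus strand) and that of HBZP1 (chr16:164482-164686, plus strand) are both 205 bases long and had 0 differences. The same 2 segments are also annotated as the first exons of the HBM transcripts HBM-202 and HBM-203, so that a read from this exon could be given to HBZ, HBZP1 or HBM. It is printed for that reason, once for all of them.
HBZ exon 2: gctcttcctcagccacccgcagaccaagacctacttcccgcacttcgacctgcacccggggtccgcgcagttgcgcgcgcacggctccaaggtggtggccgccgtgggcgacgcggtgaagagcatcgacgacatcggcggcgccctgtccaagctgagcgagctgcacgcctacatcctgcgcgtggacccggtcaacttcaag
HBA1 and HBA2 are closer still: their 429 coding bases were identical, and over the whole transcripts (577 and 576 bases) 19 mismatches and 1 gap base remained (96.5% identity). Of the 427 windows of 151 bases in the HBA1 transcript, 330 (77.3%) also occur in HBA2. The other globin genes of the cluster were further apart, with coding identities to HBA1 of 69.6% for HBZ, 73.5% for HBQ1 and 63.3% for HBM, and with 0 shared windows.

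All 10 genes had 1 TPM or more in every library and entered the test. With limma on log2(TPM + 1) and Benjamini-Hochberg adjustment at 0.05, 6 of the 10 were higher after menin depletion, 1 was lower and 3 did not pass. Over all 14294 genes tested 53.6% passed, 22.1% as higher and 31.5% as lower, and the median log2 fold change was -0.07 against 0.62 for the 10 genes. The groups did not overlap for 7 of the 10, against 61.8% of all genes tested. Because so many genes passed, nothing is read from the count for these 10, and the size of the change is given for each gene.

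**Figure D1:**
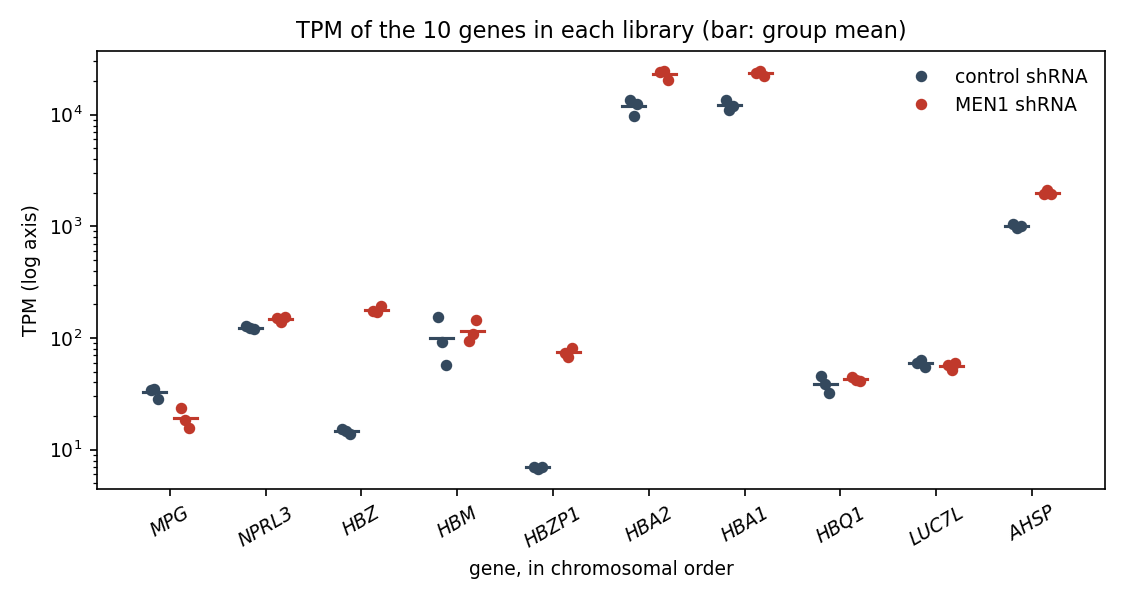
TPM (log axis) of the 10 genes in each of the 6 libraries, in the order in which their rows start on chromosome 16. The HBM row starts before that of HBZP1, so HBM is drawn ahead of it. Points are libraries and short bars are group means. HBZ and HBZP1 stand far apart between the groups (HBZ 171 to 195 against 13.9 to 15.2 TPM), HBA2, HBA1 and AHSP shift by a smaller step, and the points of HBM, HBQ1 and LUC7L overlap.

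The embryonic gene changed most. HBZ (ENSG00000130656, chromosome 16, 142728 to 154503, plus strand) stood at 174, 171 and 195 TPM in the MEN1 shRNA libraries and at 15.2, 14.7 and 13.9 TPM in the controls. The lowest MEN1 shRNA library was thus far above the highest control, and the groups did not overlap. The means were 180 ± 13.5 and 14.6 ± 0.654 TPM (SD, n = 3 each), a ratio of 12.3, with a log2 fold change of 3.53 (SE 0.0742, 95% interval 3.36 to 3.71, adjusted p 9.58e-07 in limma). HBZ ranked 15 among the 14294 genes tested by log2 fold change, and its mean coverage per exonic base was 348 to 439 reads after depletion and 30.4 to 49.4 in the controls. Among all gene rows ordered by TPM it moved from places 7187 to 7581 to places 752 to 900.

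The pseudogene row followed HBZ. HBZP1 (ENSG00000206178, 163122 to 165156, plus strand), which GENCODE lists as an unprocessed pseudogene, had 74.1, 68.2 and 81.8 TPM after depletion and 7.03, 6.72 and 7.03 TPM in the controls. The groups did not overlap, with means of 74.7 ± 6.82 and 6.93 ± 0.177 TPM (SD, n = 3 each) and a log2 fold change of 3.25 (SE 0.0848, adjusted p 2.44e-06 in limma). How reads were divided within the pair cannot be checked in these tables, so the sum was also fitted: HBZ and HBZP1 together had 247.9, 239 and 277 TPM after depletion and 22.3, 21.4 and 21.0 TPM in the controls, a ratio of means of 11.8 (log2 fold change 3.50, SE 0.0713, adjusted p 9.58e-07 in limma). The ratio of HBZ to HBZP1 was 2.35, 2.50 and 2.39 after depletion and 2.17, 2.18 and 1.98 in the controls, so most of the signal was given to HBZ in every library. In the tables the HBZ row begins at 142728, and in GENCODE v29 it begins at 152687, so the annotation behind the tables includes sequence upstream of the older gene model.

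HBM, which encodes mu-globin and lies between HBZP1 and HBA2, did not pass the test and had the largest standard error of the set. HBM (ENSG00000206177, 153892 to 166764, plus strand) had 94.6, 109 and 146 TPM after depletion and 153, 92.0 and 57.6 TPM in the controls. Control replicate 1 was the highest of all 6 libraries and control replicate 3 the lowest, so the MEN1 shRNA libraries lay inside the control range. The log2 fold change was 0.29 (SE 0.327, 95% interval -0.47 to 1.06, adjusted p 0.483 in limma), and it turned to -0.05 when control replicate 3 was left out. Because the HBM row spans HBZ exon 2, HBZP1 and the HBM gene proper, HBZ, HBM and HBZP1 were also summed, which gave a log2 fold change of 1.66 (SE 0.257, adjusted p 0.00117 in limma). Both sums were chosen after the values had been seen.

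The adult genes carried nearly all the alpha-like RNA and about doubled together. HBA2 (ENSG00000188536, 172876 to 173710, plus strand) had 24298, 24805 and 20606 TPM after depletion and 13645, 9836 and 12443 TPM in the controls. HBA1 (ENSG00000206172, 176680 to 177522, plus strand) had 23836, 24469 and 22365 TPM after depletion and 13508, 11049 and 12068 TPM in the controls. For each gene every MEN1 shRNA library was above every control library. The log2 fold change was 0.96 for HBA2 (SE 0.136, 95% interval 0.65 to 1.28, adjusted p 0.000746 in limma) and 0.95 for HBA1 (SE 0.0934, 95% interval 0.73 to 1.17, adjusted p 0.000146).

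Since the coding sequences of HBA1 and HBA2 do not differ, the sum is the safer value. Together they rose from 24183 ± 3147 to 46793 ± 3359 TPM (SD, n = 3 each), or from 2.42% ± 0.315 to 4.68% ± 0.336 of all TPM, with a log2 fold change of 0.96 (SE 0.117, adjusted p 0.000375 in limma). In the order of all rows by TPM they moved from places 4 and 5 to places 2 and 3, behind HBB, the adult beta-globin gene, which was first in every library. The ratio of HBA2 to HBA1 was 1.02, 1.01 and 0.921 after depletion and 1.01, 0.890 and 1.03 in the controls, a difference of means of 0.00765 with overlapping groups (2-sided exact permutation p 0.8, adjusted over 4 ratios 0.8). With 3 libraries against 3 the smallest p such a test can give is 0.1, so none of the 4 ratios tested in this way could pass 0.05.

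HBQ1, the theta-globin gene at the downstream end of the cluster, did not pass the test. HBQ1 (ENSG00000086506, 180459 to 181179, plus strand) had 44.5, 41.7 and 41.6 TPM after depletion and 45.6, 38.8 and 32.4 TPM in the controls. The MEN1 shRNA libraries lay within the control range, and the log2 fold change of 0.14 did not pass (SE 0.118, 95% interval -0.14 to 0.42, adjusted p 0.355 in limma). It was 0.02 without control replicate 3 and 0.26 without control replicate 1 (adjusted p 0.0671), so single controls set its size. The interval over all 6 libraries leaves out a rise of the size seen in HBA1 and HBA2, whose own lower bounds were 0.73 and 0.65.

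AHSP, the chaperone that holds free alpha-globin in a soluble state, rose by a log2 fold change near those of HBA1 and HBA2. AHSP (ENSG00000169877, chromosome 16, 31527900 to 31528803, plus strand) had 1940, 2108 and 1932 TPM after depletion and 1059, 961 and 1013 TPM in the controls. The groups did not overlap, and the replicates of a group were close. The means were 1993 ± 99.5 and 1011 ± 48.9 TPM (SD, n = 3 each), with a log2 fold change of 0.98 (SE 0.0635, 95% interval 0.83 to 1.13, adjusted p 3.48e-05 in limma). Its ratio to the sum of HBA1 and HBA2 was 0.0403, 0.0428 and 0.0450 after depletion and 0.0390, 0.0460 and 0.0413 in the controls, a difference of 0.000572 (2-sided exact permutation p 0.8, adjusted 0.8). The groups of this ratio overlapped, while both of its terms about doubled.

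The make-up of the alpha-like RNA shifted toward the embryonic gene from a low base. HBZ made up 0.359%, 0.344% and 0.451% of the TPM of the 5 alpha-like globin genes after depletion and 0.0557%, 0.0698% and 0.0566% in the controls. Every MEN1 shRNA library was above every control, with means of 0.385% ± 0.0578 and 0.0607% ± 0.00792 (SD, n = 3 each; 2-sided exact permutation p 0.1, the smallest possible, adjusted 0.4). The mean share was 6.34 times as high after depletion, less than the 12.3-fold rise of HBZ itself, because HBA1 and HBA2 rose as well. The highest share in any library was 0.451%.

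On the beta side all 5 genes rose, and the embryonic gene again by the largest log2 fold change. HBB went from 30238 ± 2696 to 50171 ± 2882 TPM (log2 fold change 0.73), HBD by a log2 fold change of 1.46, HBG2 by 1.79 and HBG1 by 2.51 (SD, n = 3 each, adjusted p 0.000595 or lower for each in limma). HBE1 went from 0.614 ± 0.171 to 15.0 ± 3.12 TPM (SD, n = 3 each), by 3.29. It was below 1 TPM in every control and entered the test only through the MEN1 shRNA libraries, so no p-value is given for it. HBG1 and HBG2 are near-identical, so reads may be divided either way between them. Other rows overlap these genes on the same strand. HBBP1, a pseudogene whose row overlaps that of HBD, had 986, 987 and 969 TPM after depletion and 36.0, 31.5 and 57.7 TPM in the controls. The unnamed ENSG00000284931 over HBG1 and HBG2 had 626 ± 106 TPM after depletion and 94.6 ± 40.9 in the controls (SD, n = 3 each). Over HBD, the unnamed ENSG00000290652 had 46.9 ± 2.02 and 69.5 ± 13.5 TPM. The rows of HBE1 and HBG2 overlap each other, and HBG2 had 462 ± 149 and 129 ± 8.16 TPM. The values of HBD, HBG1, HBG2 and HBE1 therefore depend on how reads were divided among these rows. Under FPKM and other scalings the log2 fold change of HBE1 ranged from 2.63 to 3.42. The ratio of alpha-like to beta-like TPM was 0.932, 0.903 and 0.889 after depletion and 0.983, 0.672 and 0.743 in the controls. Control replicate 1 had the highest ratio of all and the other controls the lowest, so the groups overlapped (difference of means 0.109, 2-sided exact permutation p 0.4, adjusted 0.8). The difference was 0.0451 without control replicate 2 and 0.200 without control replicate 1, and on the deposited coverage in place of TPM it was 0.228 (exact p 0.1). Alpha-like and beta-like genes together took 9.90% ± 0.630 of all TPM after depletion and 5.51% ± 0.273 in the controls.

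**Figure D2:**
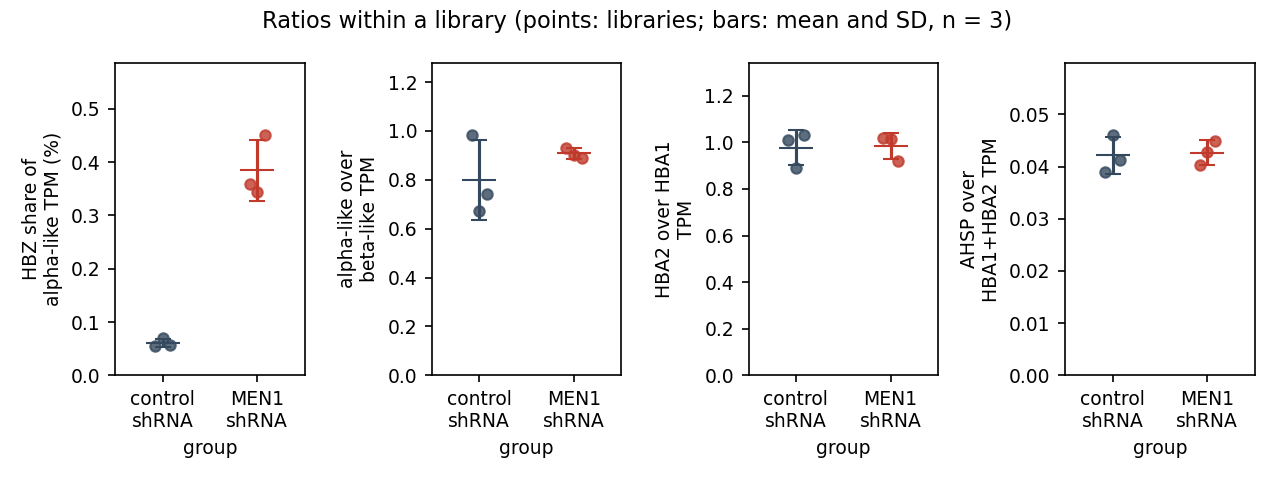
Each panel shows 1 ratio in the 3 control and 3 MEN1 shRNA libraries, with points for libraries and bars for the mean and SD. The share of HBZ among alpha-like TPM separates the groups (0.0557% to 0.0698% against 0.344% to 0.451%), while the alpha-like to beta-like, HBA2 to HBA1 and AHSP to HBA1 plus HBA2 ratios overlap.

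Of the genes on either side of the globins, 1 rose slightly, 1 fell and 1 did not pass. NPRL3, a subunit of the GATOR1 complex that restrains mTORC1 and the gene whose introns hold the alpha-globin enhancers, rose slightly. NPRL3 (ENSG00000103148, 84271 to 138677, minus strand) had 152, 140 and 154 TPM after depletion and 128, 123 and 121 TPM in the controls. The groups did not overlap, but the ratio of the means was only 1.20 (149 ± 7.44 against 124 ± 3.96 TPM, SD, n = 3 each), with a log2 fold change of 0.26 (SE 0.0596, 95% interval 0.12 to 0.40, adjusted p 0.0076 in limma). Inside its span on the opposite strand lie 2 unnamed rows, chosen here after their values were seen, that were too low to test: ENSG00000269482 had 0.813, 1.20 and 0.868 TPM after depletion and 0.439, 0.446 and 0.371 in the controls. ENSG00000228779 had 0.875, 1.58 and 2.24 TPM after depletion and 0.502, 0.529 and 0.297 in the controls. Both rows were higher in every MEN1 shRNA library than in any control, at about the level of 1 TPM.

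MPG, which encodes a glycosylase that removes alkylated bases from DNA, was the 1 gene of the set that fell. MPG (ENSG00000103152, 77007 to 85851, plus strand) had 23.5, 18.3 and 15.6 TPM after depletion and 34.2, 35.1 and 28.3 TPM in the controls. The groups did not overlap, and the control mean was 1.70 times the mean after depletion (32.5 ± 3.68 against 19.1 ± 4.02 TPM, SD, n = 3 each; log2 fold change -0.75, SE 0.152, 95% interval -1.11 to -0.40, adjusted p 0.0042 in limma). Its end overlaps the end of NPRL3 on the other strand by their coordinates. The labels describe a strand-specific kit, but whether the counting used strand is not given in the sources used here.

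LUC7L, which encodes a protein associated with the U1 splicing particle, did not pass. LUC7L (ENSG00000007392, 188969 to 229463, minus strand) had 57.5, 51.8 and 59.3 TPM after depletion and 59.4, 63.1 and 55.1 TPM in the controls. The groups overlapped, and the log2 fold change was -0.07 (SE 0.0785, 95% interval -0.26 to 0.11, adjusted p 0.463 in limma).

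Within the adult genes lie antisense rows with no name. ENSG00000290038, on the minus strand over the end of HBA2 (173502 to 173660), had 3.52, 4.01 and 4.24 TPM after depletion and 0.986, 2.51 and 0.561 TPM in the controls (log2 fold change 1.15, SE 0.284). Among the controls only replicate 2 reached 1 TPM. The row thus entered the test only through the MEN1 shRNA libraries, and no p-value is given for it. It rose alongside the far more abundant HBA2, and reads of the 2 cannot be told apart if strand was not used. ENSG00000290010, placed likewise over HBA1, averaged 0.440 ± 0.203 TPM after depletion and 0.403 ± 0.0761 TPM in the controls (SD, n = 3 each) and was not tested.

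By level per gene length, the order of the 10 genes in the controls was HBA1 and HBA2, then AHSP, NPRL3, HBM, LUC7L, HBQ1, MPG, HBZ and HBZP1. The ranges of neighbours overlapped between HBA1 and HBA2, between NPRL3 and HBM, between HBM and LUC7L and between HBQ1 and MPG, so these neighbours cannot be ordered. After depletion HBZ moved from place 9 to place 4, above NPRL3 and clear of it, HBZP1 moved from place 10 to place 7, and MPG became the lowest. The ranges then overlapped between HBA1 and HBA2 and between NPRL3 and HBM only.

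Beyond the set, 15 further genes of the chromosome 16 tip were listed. Of the 13 that could be tested 3 were higher and 8 were lower, with a median log2 fold change of -0.43 against -0.07 over all genes tested, of which 31.5% were lower. Just past LUC7L, FAM234A fell from 34.5 ± 1.77 to 18.2 ± 1.28 TPM (SD, n = 3 each; log2 fold change -0.89, adjusted p 0.000106 in limma). PDIA2, a disulfide isomerase gene 110.3 kb from the start of HBA2, fell from 10.0 ± 1.14 to 2.57 ± 0.249 TPM (-1.62 on the log2 scale, adjusted p 5.54e-05). ARHGDIG fell by 0.92 on the log2 scale, AXIN1, a scaffold of the beta-catenin destruction complex, fell by 0.59, and NME4 fell by 0.57.

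Closer to the telomere SNRNP25 fell by 0.43 and POLR3K by 0.31 on the log2 scale, and farther out CAPN15 fell by 0.43. POLR3K no longer passed under other scalings of the libraries, and DECR2 then passed as higher (log2 fold change 0.16, adjusted p 0.106 as fitted here), which gives 4 higher and 7 lower. The risers were MRPL28, a mitochondrial ribosomal protein gene (126 ± 9.41 to 182 ± 5.14 TPM, 0.53 on the log2 scale, adjusted p 0.000442 in limma), PIGQ (0.34) and PGAP6 (0.31), while RAB11FIP3 did not pass (-0.07). RHBDF1, next to MPG, was too low to test at 0.681, 1.62 and 1.25 TPM after depletion and 0.217, 0.134 and 0.0318 TPM in the controls. RGS11 stayed below 1 TPM in every library.

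**Figure D3:**
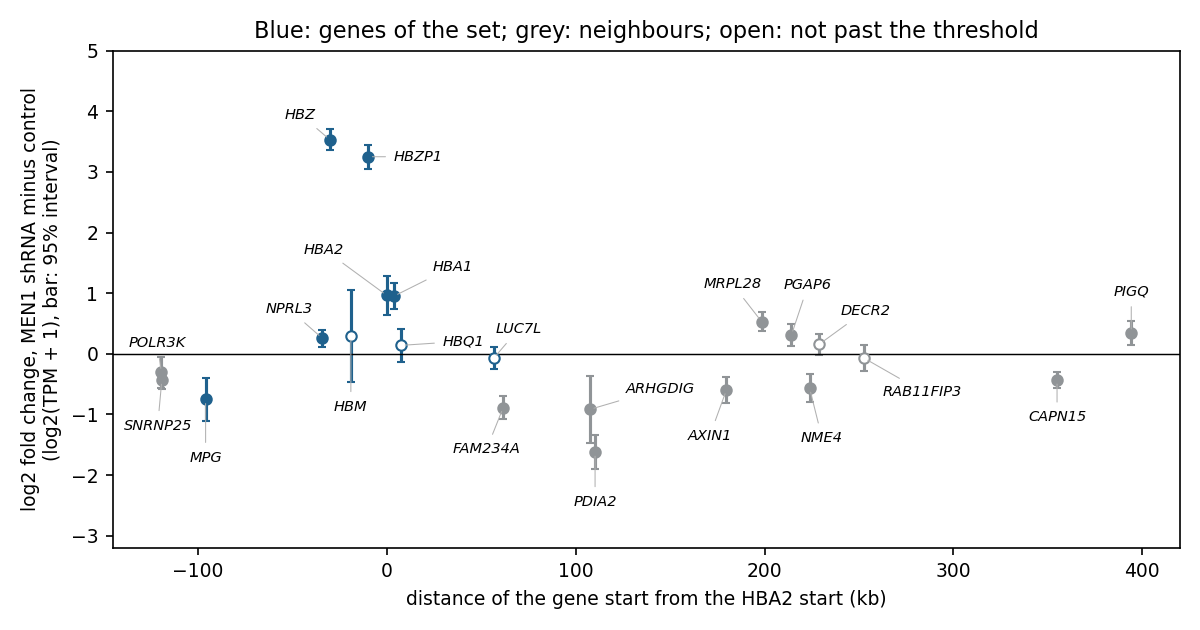
Log2 fold change (log2(TPM + 1), MEN1 shRNA minus control) against the distance of each gene's start from the start of HBA2 in kb, with 95% intervals from limma. Blue points are genes of the set, grey points the other listed genes, and open points did not pass the threshold. HBM is placed by the start of its row, which lies upstream of HBZP1. HBZ (3.53) and HBZP1 (3.25) stand above all others, HBA2 and HBA1 lie near 0.96 and 0.95, and FAM234A (-0.89) on the downstream side and MPG (-0.75) on the upstream side lie below 0.

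RefSeq promoter windows (250 bases before the start, GRCh38.p14, 35116 promoters) matched 4 of the 10 genes, MPG, NPRL3, HBM and LUC7L. Entries for HBZ, HBZP1, HBA1, HBA2, HBQ1 and AHSP were not matched. The windows held 27 CpG in MPG, 29 in NPRL3, 27 in HBM and 17 in LUC7L, against a median of 11 over all promoters. On both strands the letters CACCC, the core of a KLF motif, were found 1 time in MPG, 1 time in HBM and 2 times in LUC7L (54.7% of all promoters hold them), CCAAT 1 time in MPG (32.0%), and AGATAA (9.17%), TGATAA (6.66%), TATAAA (10.7%) and CATAAA (9.64%) in 0 of the 4. These are matches of letters only, and no match says nothing of a factor.

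Among 28 listed regulators of the alpha-globin locus, 27 could be tested, of which 10 were higher, 4 were lower and 13 did not pass (median log2 fold change 0.10 against -0.07 over all genes). Over all genes tested 22.1% were higher and 31.5% lower, so the share of listed regulators that passed was near the 53.6% of all genes. Under 2 other scalings the split was 11 higher and 2 lower, since TCF12 and NIPBL no longer passed and MBD2 did. TAL1, an erythroid factor that binds the enhancers with GATA1, went from 93.7 ± 1.38 to 158 ± 12.6 TPM (0.74 on the log2 scale, adjusted p 0.000115 in limma), and MAFG, a small MAF partner of NFE2 and BACH1, from 24.1 ± 0.565 to 48.2 ± 7.52 TPM (0.96, adjusted p 0.000336). LDB1, which bridges enhancers and promoters, fell from 285 ± 11.3 to 159 ± 17.3 TPM (-0.84, adjusted p 0.000145; SD, n = 3 each throughout). GATA1 (0.06, adjusted p 0.328) and ATRX, whose germline loss causes an alpha-thalassemia syndrome (-0.07, adjusted p 0.565), did not pass, nor did KLF1 and DAXX, whose signs turned with the scaling. BCL11A, named here after its values were seen, had the largest change of the list, at 19.4 ± 1.97 TPM in the controls and 3.04 ± 2.12 TPM after depletion (log2 fold change -2.45, adjusted p 0.000487).

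Of 12 genes that sense or clear free alpha-globin and heme stress, 4 were higher, 1 was lower and 7 did not pass (median log2 fold change 0.14), a share that passed no larger than the 53.6% over all genes. EIF2AK1, the heme-regulated kinase that slows globin translation, rose from 181 ± 3.97 to 312 ± 12.3 TPM (0.78 on the log2 scale, adjusted p 3.94e-05 in limma). ULK1, an autophagy kinase, rose from 12.5 ± 1.32 to 27.9 ± 4.16 TPM (1.09, adjusted p 0.000322), and HSPA1A, a heat shock gene with a near-identical copy, from 134 ± 13.2 to 200.3 ± 5.31 TPM (0.58, adjusted p 0.000622). ATF4 was the other riser, and PRDX2, an abundant red cell peroxidase, was the 1 that fell (2086 ± 110 to 1627 ± 177 TPM, -0.36 on the log2 scale, adjusted p 0.00938; SD, n = 3 each throughout). UBE2O, the conjugating enzyme that marks free alpha-globin for the proteasome, did not pass (-0.05, adjusted p 0.55), and its sign turned with the scaling.

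**Figure D4:**
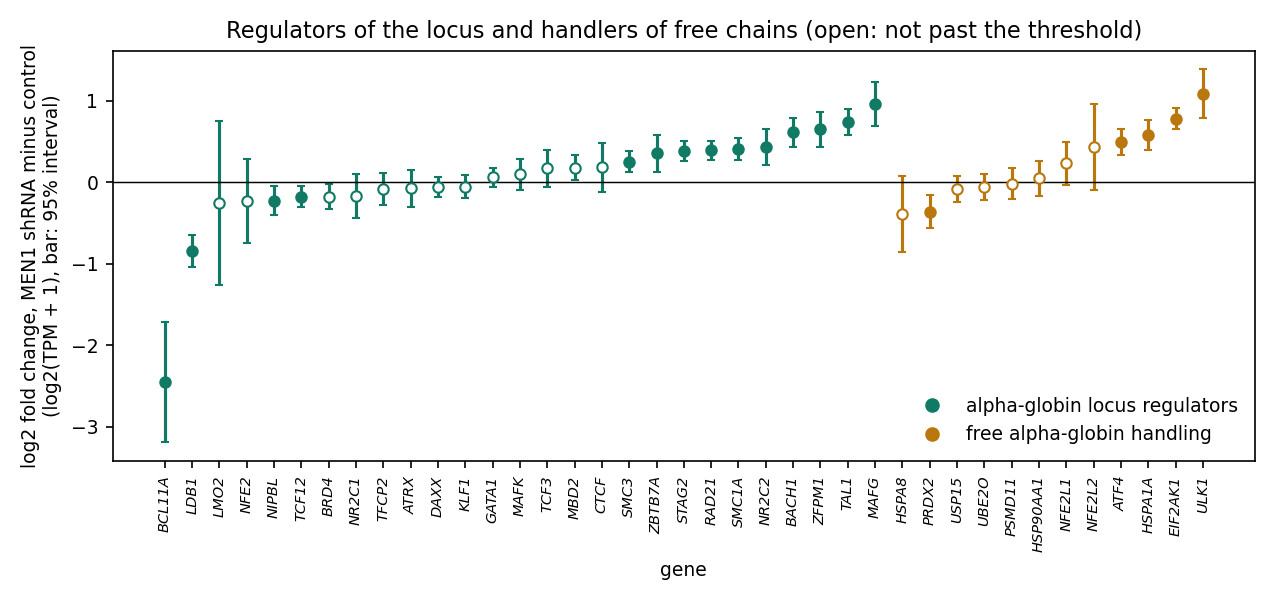
Log2 fold change (log2(TPM + 1), MEN1 shRNA minus control) with 95% intervals for the tested genes of the regulator list (green) and of the list for handling of free alpha-globin (ochre), each sorted by size. Open points did not pass the threshold. TAL1 (0.74), MAFG (0.96), EIF2AK1 (0.78) and ULK1 (1.09) lie above 0 and LDB1 (-0.84) and BCL11A (-2.45) below, while GATA1, KLF1 and ATRX lie near 0.

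The erythroid label held: all 8 erythroid markers were expressed, 6 of them higher after depletion and 0 lower. Of 10 markers of later erythroid cells 8 were higher and 1, TRIM58, was lower, with summed levels of 3803 to 4001 TPM after depletion against 2033 to 2192 TPM in the controls. SLC4A1, EPB42 and ALAS2, all higher, are in both lists, and the erythroid list holds HBB, so the counts are not independent. Of 7 progenitor markers 6 could be tested and 5 were lower, with summed levels of 343 to 389 TPM against 798 to 859 TPM, and CD34 was below 1 TPM in every library. Over all genes tested 22.1% were higher and 31.5% were lower. These marker levels moved with the rise of HBZ, HBA1, HBA2 and AHSP, and their part in it was not tested. In bulk RNA fewer cells of a kind and less RNA per cell cannot be told apart.

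No tested marker of another lineage was higher after depletion. Of 7 megakaryocyte markers only ITGA2B could be tested, and it was lower (summed 17.0 to 21.6 TPM against 31.9 to 36.7 TPM), with GP9, PF4, PPBP, GP1BA, ITGB3 and VWF below 1 TPM. At these low levels, ITGB3 did not overlap between the groups (0.316, 0.463 and 0.388 TPM against 0.115, 0.0768 and 0.0286 TPM), and with no filter on low values 1 megakaryocyte marker passed as higher. Of 6 mast cell and basophil markers the near-identical TPSAB1 and TPSB2 were lower (summed 725 to 885 TPM against 1037 to 1307 TPM), and CPA3, HDC and FCER1A were below 1 TPM. The 5 monocyte and neutrophil markers summed to 0.492 to 1.07 TPM against 3.40 to 5.19 TPM, with CD14, MPO and ELANE below 1 TPM, and the 4 lymphoid markers were all below 1 TPM.

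Over the 6 libraries, profiles of log2(TPM + 1) after subtraction of each gene's control mean were compared with those of HBZ and of AHSP by Euclidean distance across all 14294 genes tested. Rows without a gene name were left out of the places given here. Nearest to HBZ among named genes were NPY1R (0.44), HBZP1 (0.50), HBE1 (0.53), EML1 (0.56) and APOE (0.68). NPY1R, a neuropeptide Y receptor gene, had 90.6, 122 and 126 TPM after depletion and 7.88, 7.41 and 7.85 TPM in the controls, and HBE1 is the embryonic gene of the beta cluster. HBE1 and EML1 were below 1 TPM in every control, so they entered the comparison only through the MEN1 shRNA libraries. Nearest to AHSP were TPRG1L (0.093), JAZF1 (0.12), ZNF79 (0.12), HBA1 (0.14) and STX12 (0.14). HBA1 was thus 4th among the named genes, and HBA2, whose replicates spread more, was 124th. A short distance here says that the libraries were alike in size and order of change, and nothing of shared control.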

How the data were processed

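RNA-seq of 6 HUDEP-2 libraries (3 MEN1 shRNA, 3 control) was analysed, grouped by sample title. The submitters' processing notes name FastQC, Trimmomatic, STAR 2.7.1a, Picard 2.20.4, StringTie 2.0.4 and hg38; which gene annotation was used, and whether counting used strand, is not given in the sources used here. Each deposited table holds coverage (mean reads per exonic base), FPKM and TPM per gene, per the file headers. The deposited TPM were scaled by the authors to a fixed total per library, so a rise of abundant RNA lowers all other values. The deposited FPKM served as an alternative unit, and the deposited coverage gave the depth. In low genes with 1 transcript, coverage times length was most often 302 bases and next most often 604, taken as 1 and 2 pairs of 151-base reads, which puts the depth at 18400000 to 35800000 pairs per library. Negative residues in control replicate 2 (1 TPM value, 2 coverage values) were set to 0.

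Genes with TPM of at least 1 in 3 or more libraries (14294) were transformed to log2(TPM + 1), which understates the change of low genes, and fitted with limma 3.58.1 (R 4.3.3, eBayes with trend, 2-sided, Benjamini-Hochberg over all genes tested, threshold 0.05). All adjusted p-values of genes come from that fit, in which HBA1 + HBA2 and 2 other sums were added features. Ratios were compared by exact permutation in SciPy 1.17.1. The limma fit was also run on simulated data with independent noise and far fewer changed genes than passed here. Nothing is read from that run. Identities came from GENCODE v29 transcripts (GRCh38) with Biopython 1.88. Of the 62754 gene identifiers, 58261 were in that annotation and 99.7% of these overlapped their position there. Of the 10 members, 4 had the same start and end in both.

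The members and gene lists were chosen with earlier results of these data known. Named genes were the 10 members, MEN1, the 5 beta-like globins, unnamed or pseudogene rows overlapping a globin member, the listed neighbours, up to 3 genes per list with the lowest adjusted p, and the 5 nearest profiles of HBZ and AHSP; others were chosen after their values were seen. Alternatives were the pseudocount, the low-value filter, FPKM, 2 scalings, no trend, a replicate block, leaving out each library, and, for ratios, coverage and added overlapping rows.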

Additional observations from a re-analysis of the deposited data

How the results depend on the processing

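Across 272 comparisons of a result with an alternative, 266 were kept and 6 reversed in direction, none of them past 0.05. For fold changes, kept meant the same direction and the same side of the threshold. For counts of genes it meant only a count of similar size. For ratios only the direction could change, since their exact permutation p cannot fall below 0.1. The count of members stayed at 6 higher and 1 lower under every alternative run, and genes past the threshold numbered 6345 to 7600 against 7657. The log2 fold change ranged over all alternatives from 3.47 to 3.61 for HBZ, 0.88 to 1.03 for HBA1, 0.83 to 1.07 for HBA2, 0.94 to 1.05 for AHSP, 0.24 to 0.33 for NPRL3 (adjusted p 0.00242 to 0.0304 in limma) and -0.90 to -0.62 for MPG. Leaving out 1 library, HBM ranged from -0.0515 to 0.65 (-0.0515 without control replicate 3, adjusted p 0.882), the difference in the HBA2 to HBA1 ratio from -0.0358 to 0.0394 (below 0 without MEN1 shRNA replicate 1, MEN1 shRNA replicate 2 or control replicate 2), and that in the AHSP ratio from -0.000984 to 0.00253 (below 0 without MEN1 shRNA replicate 3 or control replicate 1); the causes were not tested. Under other scalings the median over all genes shifted by up to 0.0614. Replicate numbers did not pair the libraries (correlations of deviations 0.017, -0.027 and -0.012); with a replicate block 7011 genes passed, HBZ kept 3.53 (adjusted p 0.000153), and the free alpha-globin list had 6 higher in place of 4. The lower count of the regulator list ran from 2 to 5. Adding overlapping rows was not run for HBA1, HBA2 and AHSP, which have no such row on their strand. For the HBZ share it added HBZP1 to the alpha-like total but not to HBZ. That alternative therefore does not show the share with the reads of both rows counted as HBZ. Depth limits the rows near 1 TPM, and read sharing limits the split of HBZ, HBZP1 and HBM.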
